A study of Mus musculus with 12 samples.

Results

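The 78 mouse genes with the symbols Mrpl or Mrps followed by a number were examined in 3 myeloid cell types grown from the same bone marrow. They were chosen by symbol alone, pseudogenes excluded, from the 46072 genes of the authors' deposited table, and comprised 49 Mrpl and 29 Mrps symbols. All 78 were tested by the authors in each of the 3 pairwise comparisons. Marrow came from C57BL/6J mice of 6 to 8 weeks, all with no genetic change named. Osteoclasts were grown for 8 to 10 days with RANKL at 50 ng/ml on top of M-CSF at 30 ng/ml, and mononuclear cells were then detached from those cultures. Macrophages received the same M-CSF alone, and both of these cell types had first been kept for 5 days in 100 ng/ml M-CSF. Immature dendritic cells received 20 ng/ml GM-CSF, with no such first step. Each cell type was represented by 4 RNA-seq libraries (single 50-base reads), from 4 independent marrow extractions, with the 3 cell types of one experiment taken from the same mouse. Each comparison therefore sets 4 libraries against 4, and in these bulk samples a smaller share of cells of a type and less RNA per cell cannot be told apart.

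Mitochondria carry ribosomes of their own, distinct from those of the cytoplasm, which translate only the few messages of the mitochondrial genome, all of them encoding subunits of the respiratory chain and ATP synthase. Their ribosomal RNAs are transcribed inside the organelle, whereas all their proteins are encoded in the nucleus and imported. The mitochondrial ribosome holds more protein than its bacterial relative: part of its proteins have bacterial counterparts and the others are specific to mitochondria. Osteoclasts, which resorb bone, are rich in mitochondria. By known roles, 51 of the members belong to the large subunit and 26 to the small subunit. Mrps30 and Mrps18a are counted in the large subunit despite their symbols. Mrps36, also called Kgd4, is a subunit of the oxoglutarate dehydrogenase complex and not a ribosomal protein. Of the 77 ribosomal proteins, 47 have a bacterial counterpart and 30 are specific to mitochondria.

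The promoters of these genes are shown first because they hold short motifs found in them more often than in other promoters. RefSeq (GRCm38.p6) gave 75 promoters for 69 members, each of 250 bases before and 50 bases from the start site on. The ETS motif CCGGAAG, on either strand, lay in 34.7% of the members' promoters, in 11.6% of those of protein-coding genes and in 8.86% of all promoters. The NRF1 motif GCGCATGCG lay in 9.33%, 2.35% and 1.75% respectively, and the YY1 motif AAGATGGCG in 10.7%, 1.83% and 1.4%. The E-box CACGTG, the site bound by MYC among others, lay in 9.33% of the members' promoters, 7.84% of those of protein-coding genes and 7.15% of all promoters. Counted by gene this order turned, with 7.25% of the members, 8.91% of protein-coding genes and 8.09% of all genes, since 1 member, Mrpl2, has 3 nearly identical promoter windows with the E-box. The members' promoters were also richer in G and C, with a median of 58.7% against 56.3% for those of protein-coding genes, and the part of this in the motif counts was not tested. Among the members higher in osteoclasts than in macrophages (43 promoters), 27.9% held the ETS motif and 14% the NRF1 motif. Among those not called in that comparison (32 promoters), 43.8% held the ETS motif and 3.12% the NRF1 motif. These are counts of letters, given as a description, and the difference between the groups was not tested.

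**Figure D1:**
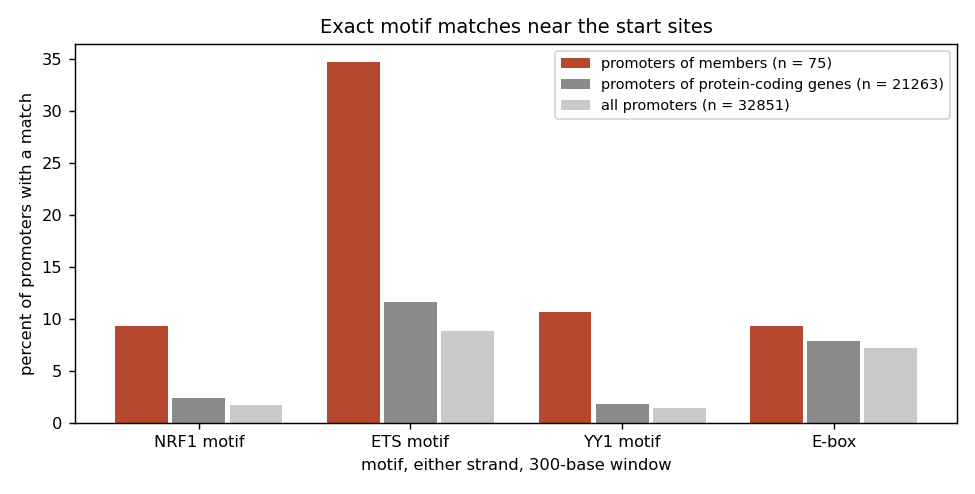
Percent of promoter windows of 300 bases with an exact match to each of 4 motifs on either strand, for the members, all protein-coding genes and all promoters in the RefSeq table. The ETS motif was found in 34.7% of the members' promoters and in 8.86% of all promoters.

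The 100 bases before the start site are printed for 7 members, 5' to 3' on the gene's strand, to show the arrangement of the motifs in genes with different changes. Capitals mark the bases of a motif match. Mrpl32 (chr13:14613038-14613137, minus strand) and Mrpl9 (chr3:94443236-94443335, plus strand) each carry 1 palindrome that matches the NRF1 motif on both strands. It was counted as 2 overlapping matches. Mrpl32 carries a further NRF1 motif 23 bases before the start. Mrpl22 (chr11:58171564-58171663, plus strand) carries an ETS and an NRF1 motif, and Mrpl36 (chr13:73330909-73331008, plus strand) an E-box and a YY1 motif. Mrpl52 (chr14:54426809-54426908, plus strand), Mrps22 (chr9:98601680-98601779, minus strand) and Mrpl3 (chr9:105053168-105053267, plus strand) carry 1 ETS motif each in the printed stretch. The first base of this ETS motif lies 47 bases before the start in Mrpl52, 11 in Mrps22 and 19 in Mrpl3. Mrpl52 has a further ETS motif just past the start, outside the printed bases.
Mrpl32: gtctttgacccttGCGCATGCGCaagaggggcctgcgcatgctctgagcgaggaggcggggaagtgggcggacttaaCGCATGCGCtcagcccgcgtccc
Mrpl9: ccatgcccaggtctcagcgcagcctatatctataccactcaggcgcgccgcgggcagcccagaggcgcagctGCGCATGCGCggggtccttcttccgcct
Mrpl22: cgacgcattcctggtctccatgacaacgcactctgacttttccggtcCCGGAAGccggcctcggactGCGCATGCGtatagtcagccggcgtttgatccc
Mrpl36: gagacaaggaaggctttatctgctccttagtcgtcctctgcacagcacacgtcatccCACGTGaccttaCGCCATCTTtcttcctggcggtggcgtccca
Mrpl52: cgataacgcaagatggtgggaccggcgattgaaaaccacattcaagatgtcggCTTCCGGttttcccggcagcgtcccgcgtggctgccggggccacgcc
Mrps22: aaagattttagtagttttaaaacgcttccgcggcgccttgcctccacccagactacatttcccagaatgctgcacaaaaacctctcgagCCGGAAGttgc
Mrpl3: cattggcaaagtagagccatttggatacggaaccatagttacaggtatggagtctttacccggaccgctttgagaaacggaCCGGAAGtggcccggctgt

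The authors' deposited table holds, for each cell type, the mean over 4 libraries of counts scaled for library size (normalised counts), and no column per library. Counts per library were recovered from these means by solving for the whole numbers behind them, which gave values for 60 members (osteoclasts), 76 (macrophages) and 77 (dendritic cells). The other members have means too high for a single solution. Libraries are lettered a to d within each cell type in ascending order of the size factor that scaled their counts. The letters cannot be tied to an experiment, so a letter shared by cell types marks only a rank. The whole numbers had themselves been scaled per library before the authors' test, by factors between 0.827 and 1.28, so they stand for reads only after that step. Markers followed the labels: by the authors' deposited table the summed means of 8 osteoclast markers were 322878 (osteoclasts), 4095 (macrophages) and 32528 (dendritic cells), and those of 8 dendritic cell markers were 8980, 5814 and 476454. The 6 macrophage markers stayed high outside macrophages, with 108357 in osteoclasts against 182044 in macrophages and 72885 in dendritic cells. The dendritic cultures also held 7 neutrophil markers at a summed mean of 14386 (77 in osteoclasts and 92 in macrophages) 3 eosinophil markers at 8180 (160 and 53), and 5 mast cell and basophil markers at 612 (10.5 and 6.56). The part of these other cells in the values below was not tested.

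Most members were highest in osteoclasts and lowest in macrophages. By the means of the authors' deposited table, osteoclasts had the highest level for 61 of 78, dendritic cells for 16 and macrophages for 1, while the lowest level lay in macrophages for 60, in dendritic cells for 16 and in osteoclasts for 2. With the cell types scaled to equal sums, osteoclasts had the highest level for 71, and the lowest level lay in macrophages for 43 and in dendritic cells for 34. The means ranged from 215 to 1590 normalised counts in osteoclasts (median 790), from 148 to 1357 in macrophages (median 584) and from 187 to 1409 in dendritic cells (median 649). Summed over the members they made 0.263% of all normalised counts of osteoclasts, 0.191% of those of macrophages and 0.199% of those of dendritic cells. Per kilobase of exon osteoclasts had a median level of 345, macrophages of 236 and dendritic cells of 287. On the same scale, ranked by the mean over the 3 cell types, Mrps21 was the highest member, at 1463, 1338 and 1647 in the 3 cell types in that order, followed by Mrps23 at 809, 673 and 821. In osteoclasts alone Mrpl12 (929) and Mrpl20 (892) lay above Mrps23. By the same mean the lowest was Mrps35, at 74.8, 41.4 and 60.0, followed by Mrpl23 at 90.9, 67.2 and 69.0 and Mrps10 at 94.5, 71.5 and 68.3.

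Against macrophages, 48 of the 78 members were higher in osteoclasts and 0 were lower at the authors' adjusted p under 0.05, by the authors' deposited table. Of all 17822 tested genes, 14.5% were higher and 14.7% lower, so the members' share of 61.5% lay well above that background. Among the 6270 tested genes with means in the members' range, 19.7% were higher and 15.8% lower. The changes were small: the median log2 fold change of the members was 0.42 (quartiles 0.29 and 0.54), against -0.03 for all tested genes, and the called members ran from 1.17-fold to 2.86-fold. The log2 fold change was above 0 in 76 of the 78 members, and in 47.7% of all tested genes. At an unadjusted p under 0.05, 59 were higher and 0 lower, and limma on the recovered counts called 34 of 60 higher and 0 lower. No share of all genes is given for these counts, so they cannot be set against a background. In 41 of the 60 members with recovered counts, all 4 osteoclast libraries lay above all 4 macrophage libraries, an arrangement found in 13.3% of all genes with such counts. The opposite arrangement was found in 0 members and in 11.5% of those genes.

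**Figure D2:**
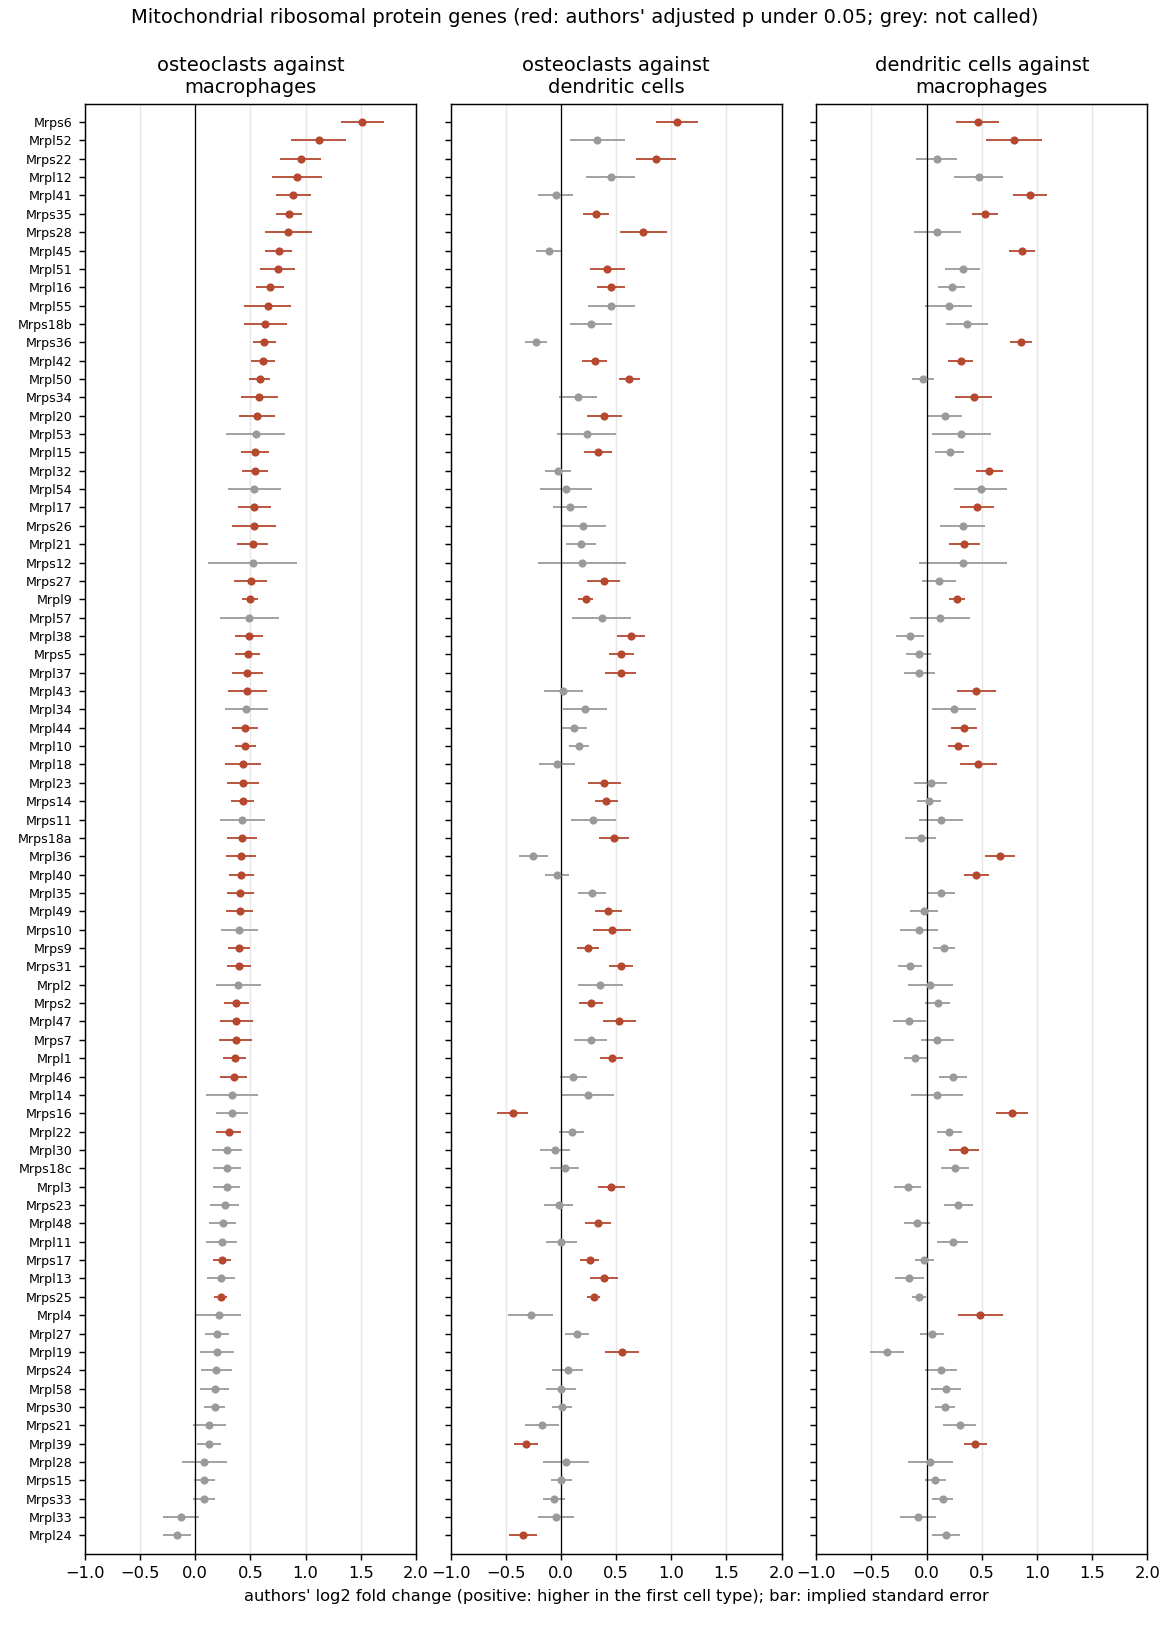
Log2 fold change of each of the 78 members in the 3 comparisons, from the authors' deposited table, with the standard error implied by its p-value. Members are in order of the osteoclast against macrophage value. 48 members were called higher in osteoclasts than in macrophages and 0 lower.

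**Figure D3:**
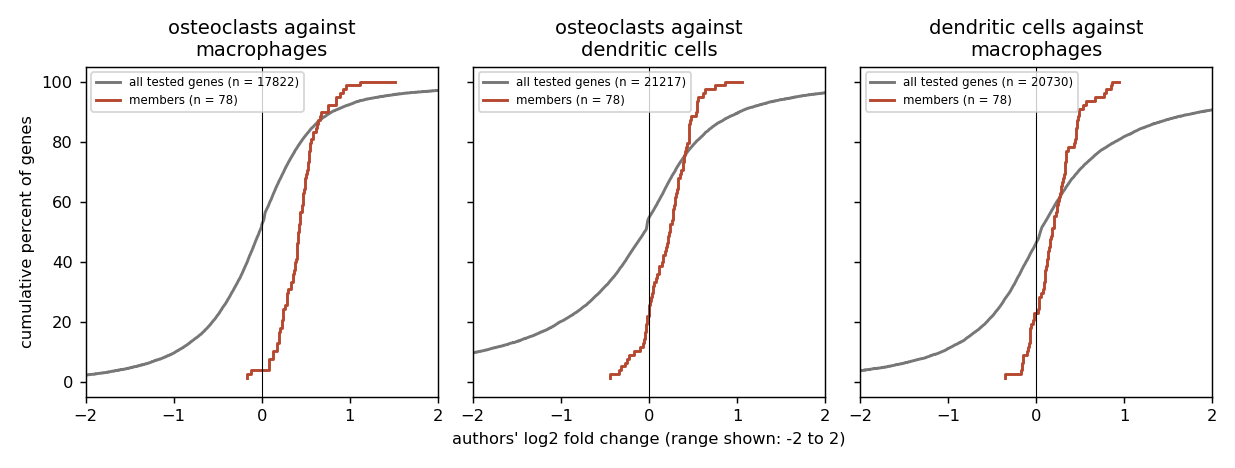
Cumulative percent of genes against log2 fold change in each comparison for the 78 members and for all tested genes. In osteoclasts against macrophages the members' curve lies to the right of 0 for 76 of 78 members, with a median of 0.42.

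Large and small subunit members were called in similar shares, 60.8% and 61.5%. In the comparison with macrophages, 31 of 51 large subunit members (median log2 fold change 0.43) and 16 of 26 small subunit members (median 0.40) were called higher in osteoclasts. Of proteins with a bacterial counterpart 26 of 47 were called higher, and of mitochondria-specific ones 21 of 30. The difference between these classes was not tested.

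Among small subunit members, Mrps6, the counterpart of bacterial S6 (GRCm38, chr16:92058270-92112227, plus strand), had the largest change. Its normalised counts in libraries a to d were 730, 826, 539 and 671 in osteoclasts, 214, 264, 271 and 210 in macrophages, and 338, 235, 348 and 403 in dendritic cells. Every osteoclast library lay above every library of the other cell types, while macrophages and dendritic cells overlapped. The authors' deposited table gave a log2 fold change of 1.52 ± 0.19 (implied standard error) against macrophages, adjusted p = 1.1e-13, and of 1.05 ± 0.19 against dendritic cells, adjusted p = 2.1e-07. Mrps6 shares 19.9% of its exonic bases, on the same strand, with the gene model Gm49711, which has no entry in the authors' deposited table. It also shares 10.4% with Slc5a3, a myo-inositol transporter gene on the same strand. In the authors' deposited table Slc5a3 averaged 604 (osteoclasts), 177 (macrophages) and 114 (dendritic cells), with a log2 fold change of 1.74 against macrophages. Whether reads of either gene were counted under Mrps6 was not tested.

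Mrps22, a mitochondria-specific small subunit protein (chr9:98588730-98601660, minus strand), shares no exonic bases with another gene. Its osteoclast libraries held 600, 613, 601 and 607 normalised counts, the narrowest spread of the 60 members with recovered counts there, with a coefficient of variation of 1.00%. Its macrophage libraries held 360, 359, 331 and 194, and its dendritic libraries 303, 299, 387 and 336. Osteoclasts lay apart from both other cell types, which overlapped. The log2 fold change in the authors' deposited table was 0.95 ± 0.18 against macrophages (adjusted p = 2.9e-06) and 0.86 ± 0.18 against dendritic cells (adjusted p = 1.5e-05). Mrps28, another small subunit protein, followed the same pattern, at 357, 367, 368 and 421 in osteoclasts, 234, 235, 221 and 149 in macrophages, and 254, 153, 192 and 298 in dendritic cells. Mrps35, also mitochondria-specific, held 547, 734, 637 and 664 in osteoclasts, 327, 357, 378 and 369 in macrophages, and 555, 509, 469 and 538 in dendritic cells. Its macrophage libraries were the lowest throughout, and 1 osteoclast library lay within the dendritic range. The authors' deposited table gave 0.85 ± 0.12 against macrophages (adjusted p = 2.4e-11) and 0.32 ± 0.12 against dendritic cells (adjusted p = 0.020).

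In the large subunit, Mrpl52, a mitochondria-specific protein (chr14:54426909-54429756, plus strand), had the largest change but also a wide spread. Its osteoclast libraries held 573, 598, 751 and 1248 normalised counts, its macrophage libraries 314, 433, 375 and 321, and its dendritic libraries 570, 652, 498 and 796. Osteoclasts and macrophages did not overlap, and osteoclast library d lay far above the other 3. The log2 fold change against macrophages in the authors' deposited table was 1.12 ± 0.25 (adjusted p = 7.1e-05), and that against dendritic cells was 0.33 ± 0.25 (adjusted p = 0.32). Mrpl12, the counterpart of the bacterial stalk protein that contacts translation factors, averaged 1423 (osteoclasts), 745 (macrophages) and 1037 (dendritic cells) by the authors' deposited table. Its log2 fold change was 0.92 ± 0.22 against macrophages there (adjusted p = 3.1e-04). Its counts could not be recovered in osteoclasts. It shares 13.1% of its exonic bases with Gm16755, a noncoding RNA gene on the opposite strand, which had a log2 fold change of 1.11 against macrophages. Mrpl38, a mitochondria-specific protein, held 749, 820, 874 and 960 in osteoclasts, above every macrophage library (539, 731, 597 and 559) and every dendritic library (537, 583, 508 and 559).

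**Figure D4:**
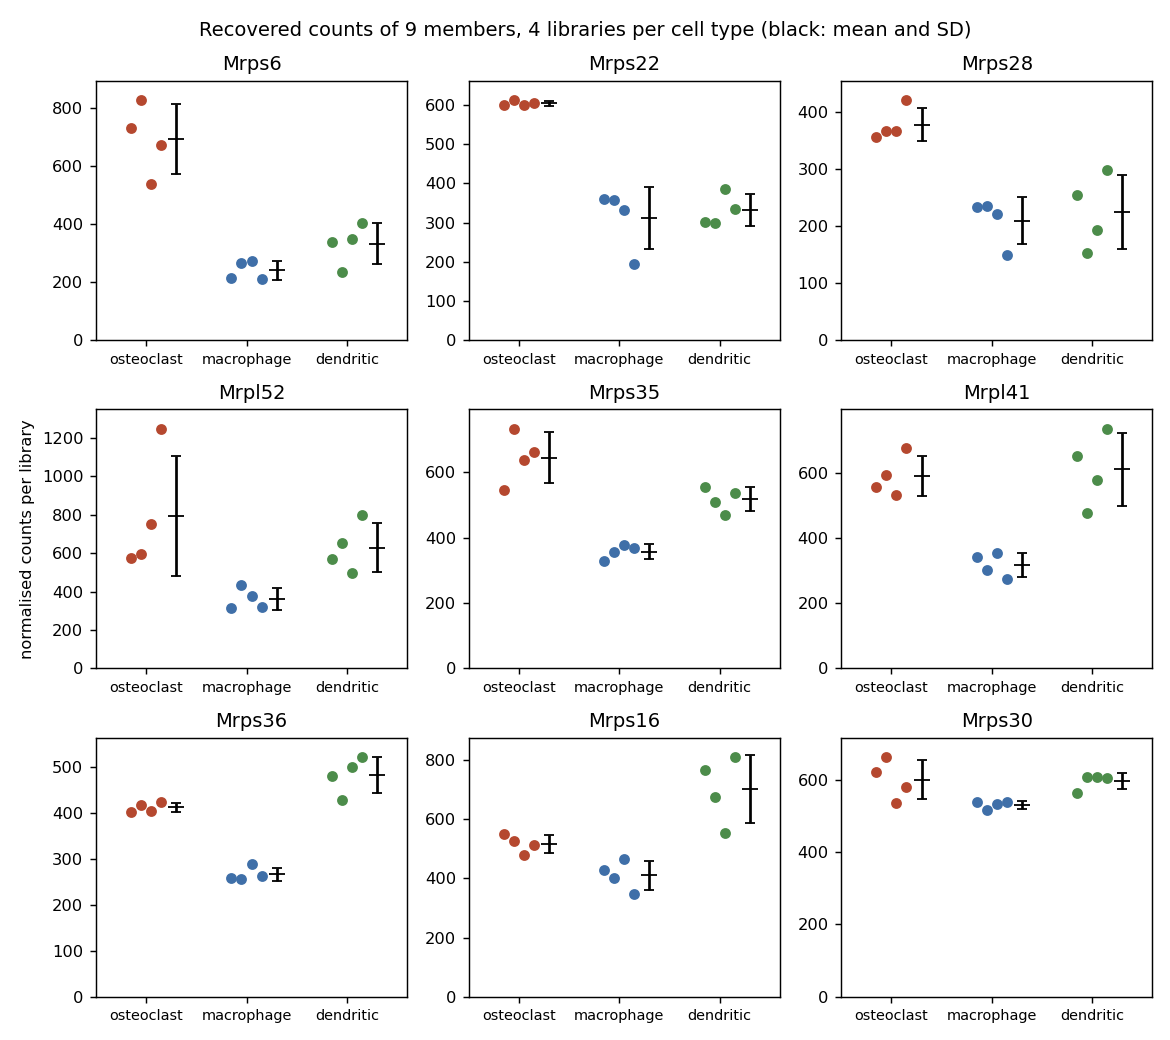
Normalised counts of 9 members in the 4 libraries of each cell type, with mean and SD in black. Each panel has its own axis from 0. For Mrps6 and Mrps22 every osteoclast library lies above every macrophage and dendritic library, whereas the Mrps30 values of osteoclasts and macrophages overlap.

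Against dendritic cells the members were divided. By the authors' deposited table, osteoclasts were higher for 31 and lower for 3, while 44 were not called. Of all 21217 tested genes 16.8% were higher and 20.1% lower, and among genes in the members' range of means 26.3% and 22.3%. The members' share of 39.7% higher was above both. Their median log2 fold change was 0.24. Of 60 members with recovered counts, 18 had all osteoclast libraries above all dendritic libraries (12.4% of all genes did) and 4 had them all below (19.5% of all genes). By subunit, 18 of 51 large and 13 of 26 small subunit members were higher.

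The 3 members lower in osteoclasts than in dendritic cells were Mrps16, Mrpl24 and Mrpl39. With the cell types scaled to equal sums, which raised every log2 fold change here by 0.19, these 3 calls were lost and the median of the members became 0.44. Mrps16, the counterpart of bacterial S16, held 551, 525, 478 and 513 normalised counts in osteoclasts, 428, 401, 464 and 347 in macrophages, and 767, 676, 552 and 809 in dendritic cells. Each dendritic library lay above each osteoclast library, the closest pair being 552 against 551. Its log2 fold change in the authors' deposited table was -0.44 ± 0.14 for osteoclasts against dendritic cells (adjusted p = 0.0079). Mrpl39, a mitochondria-specific protein, held 968, 1023, 994 and 952 in osteoclasts and 1088, 1413, 1182 and 1224 in dendritic cells, with no overlap. Mrpl24, the counterpart of bacterial L24, held 926, 1082, 871 and 849 in osteoclasts and 1232, 1350, 1162 and 987 in dendritic cells, and these ranges overlapped. It shares 26.3% of its exonic bases with Rrnad1, a protein-coding gene on the opposite strand. In the authors' deposited table Rrnad1 had a log2 fold change of -0.23 for osteoclasts against dendritic cells, which was not called.

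Dendritic cells lay above macrophages for 22 members and below for 0, with 56 not called, in the authors' deposited table. The background was 20.3% higher and 16.4% lower over 20730 tested genes, and 23.2% and 22.6% among genes in the members' range. The members' share of 28.2% higher was thus only a little above the background. At an unadjusted p under 0.05, 28 were higher and 1 lower, and limma called 10 of 75 higher and 0 lower. For these counts too, no share of all genes is given. All dendritic libraries exceeded all macrophage libraries in 12 of 75 members (17.7% of all genes), and the reverse held in 0 members (10.8% of all genes). Scaling the cell types to equal sums, which lowered every log2 fold change here by 0.15, left 10 members higher and 5 lower. The median of the members, 0.19, became 0.040 with it.

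In some members the mean was higher in dendritic cells than in osteoclasts and lowest in macrophages. With equal sums the dendritic mean no longer exceeded the osteoclast mean for Mrpl41, Mrpl45 and Mrpl32, whose log2 fold changes of osteoclasts against dendritic cells were -0.05, -0.11 and -0.03 in the authors' deposited table, and none of these was called. Mrpl41, a mitochondria-specific large subunit protein, held 557, 594, 532 and 674 normalised counts in osteoclasts, 340, 300, 354 and 275 in macrophages, and 652, 475, 577 and 735 in dendritic cells. Macrophages lay below both other cell types, which overlapped, and the authors' deposited table gave 0.94 ± 0.16 for dendritic cells against macrophages (adjusted p = 2.2e-08). Mrpl45, a protein near the exit of the ribosomal tunnel that ties the ribosome to the inner membrane, had means of 1309, 774 and 1409 in that order of cell types in the authors' deposited table. Its log2 fold change there was 0.75 ± 0.12 for osteoclasts (adjusted p = 4.3e-09) and 0.86 ± 0.12 for dendritic cells (adjusted p = 3.8e-12), both against macrophages. Mrps36, the oxoglutarate dehydrogenase subunit, held 403, 419, 404 and 424 in osteoclasts, 258, 257, 288 and 264 in macrophages, and 480, 429, 501 and 522 in dendritic cells. These 3 ranges did not overlap, and its small spread gave the lowest adjusted p of any member in the last comparison, 6.3e-16 in the authors' deposited table. Mrpl32, a large subunit protein matured by a mitochondrial protease and shown above with 3 partly overlapping NRF1 motif matches, was alike, at 633, 642, 597 and 677 in osteoclasts, 511, 467, 418 and 355 in macrophages, and 625, 685, 625 and 661 in dendritic cells.

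The 7 members whose promoters are printed above differed in their changes. Mrpl9, the counterpart of bacterial L9, held 1158, 1088, 1044 and 1123 normalised counts in osteoclasts, 762, 756, 817 and 793 in macrophages, and 936, 971, 907 and 968 in dendritic cells. The 3 ranges did not overlap, and the authors' deposited table called Mrpl9 in each comparison, with 0.50 ± 0.07 for osteoclasts against macrophages (adjusted p = 2.9e-10). Mrpl36, the counterpart of bacterial L36, held 480, 473, 450 and 487 in osteoclasts, 371, 357, 391 and 296 in macrophages, and 519, 502, 536 and 689 in dendritic cells. Its macrophage libraries were the lowest and its dendritic libraries the highest, although only the 2 comparisons with macrophages passed the test. Mrpl22, the counterpart of bacterial L22, changed less, with 0.30 ± 0.11 for osteoclasts against macrophages in the authors' deposited table (adjusted p = 0.027). Mrpl3, the counterpart of bacterial L3, had 0.28 ± 0.12 in that comparison (adjusted p = 0.067) and 0.46 ± 0.12 against dendritic cells (adjusted p = 9.7e-04), by the authors' deposited table.

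The 3 paralogs of bacterial S18 include 1 protein of the large subunit, Mrps18a, and 2 that are counted in the small subunit. Mrps18b held 869, 1005, 958 and 1040 normalised counts in osteoclasts, 726, 776, 592 and 387 in macrophages, and 798, 699, 815 and 891 in dendritic cells. Its osteoclast libraries lay above all macrophage libraries, and the authors' deposited table gave 0.64 ± 0.19 (adjusted p = 0.0051). Mrps18c held 673, 561, 592 and 482 in osteoclasts and 531, 447, 500 and 412 in macrophages, which overlapped, with 0.29 ± 0.13 in the authors' deposited table (adjusted p = 0.079). Mrps18a averaged 1281 (osteoclasts), 955 (macrophages) and 919 (dendritic cells) there, and its log2 fold change in the authors' deposited table was 0.42 ± 0.14 against macrophages (adjusted p = 0.0097). Among the members highest and lowest per kilobase, Mrpl20, the counterpart of bacterial L20, was called higher in osteoclasts than in macrophages, with 0.56 ± 0.16 in the authors' deposited table (adjusted p = 0.0033). Mrps10, the counterpart of bacterial S10, held 701, 842, 707 and 804 in osteoclasts and 745, 601, 552 and 411 in macrophages. These ranges overlapped, and the difference of 0.40 ± 0.17 in the authors' deposited table did not pass the test (adjusted p = 0.062).

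A further 20 members were called in no comparison. Mrps30, a large subunit protein despite its symbol, held 622, 663, 536 and 581 in osteoclasts, 539, 515, 534 and 539 in macrophages, and 564, 607, 609 and 605 in dendritic cells. Mrpl58, a peptidyl-tRNA hydrolase built into the large subunit, averaged, by the authors' deposited table, 407 in both osteoclasts and dendritic cells and 360 in macrophages. Mrpl11, the counterpart of bacterial L11, had means of 716, 605 and 713 there. Mrps12, the counterpart of the decoding protein S12, was the most variable of the members with recovered counts in each cell type. It held 214, 183, 128 and 334 in osteoclasts, 133, 177, 193 and 88.2 in macrophages, and 207, 83.7, 115 and 343 in dendritic cells. Its log2 fold change against macrophages was 0.52 ± 0.40 in the authors' deposited table (adjusted p = 0.37), so a difference of that size was not detectable for it.

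In several libraries many members stood off from their group in the same direction. Summed over the 60 members with counts in all 12 libraries, the osteoclast libraries a to d held 40244, 39652, 38398 and 43035 normalised counts. The macrophage libraries held 31578, 31140, 32541 and 26291, and the dendritic libraries 36443, 33787, 32314 and 41291. The lowest osteoclast sum lay above the highest macrophage sum, whereas osteoclasts and dendritic cells overlapped. Macrophage library d was the lowest of its 4 for 42 of the 60 members, with a median deviation of -0.20 (log2) from the mean of its group. Its median deviation was 0.00063 over 4259 genes with counts in all 12 libraries, the members included. These genes had group means no lower than the lowest mean of any member. Dendritic library d was the highest of its 4 for 42 of the 60, with a median deviation of 0.19 against 0.016 for genes chosen in the same way. Osteoclast library d was the highest of its 4 for 34 of the 60, with a median deviation of 0.058 against 0.026 for genes so chosen. Macrophage library c lay above its group's mean for 53 of the 60. Macrophage library d had also been scaled up the most among macrophages before the authors' test, by 1.133 against 0.827 to 0.8944 for the others, and the part of this in its low values was not tested. The median coefficient of variation was 8.7% over 60 members in osteoclasts, 11.5% over 76 in macrophages and 12.8% over 77 in dendritic cells. These are the members with recovered counts in each cell type, so the 3 values do not cover the same members. Without macrophage library d, limma called 29 of 60 members higher in osteoclasts than in macrophages, against 19 without osteoclast library d and 22 without osteoclast library c. These counts also have no share of all genes beside them.

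**Figure D5:**
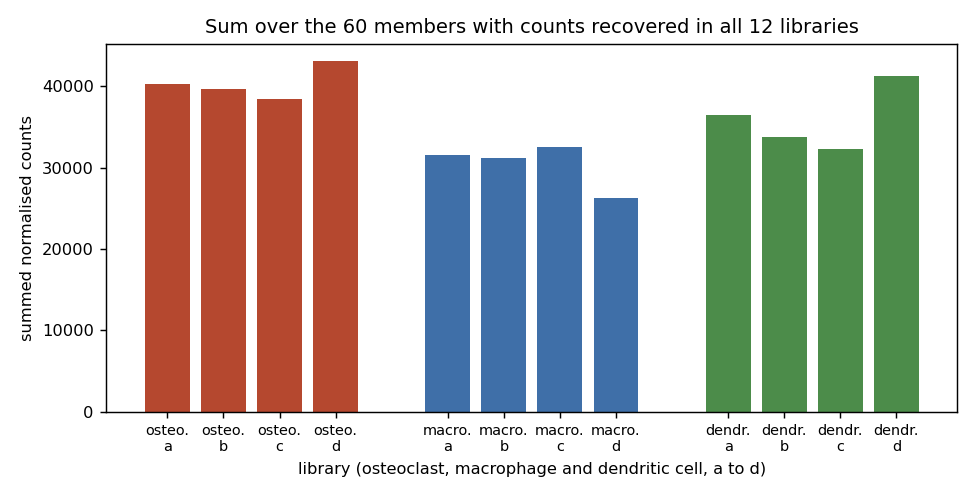
Sum of normalised counts over 60 members in each of the 12 libraries. The osteoclast bars (38398 to 43035) all exceed the macrophage bars (26291 to 32541), with macrophage library d the lowest and dendritic library d (41291) within the osteoclast range.

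The other genes of mitochondrial translation were counted in the same comparisons. Of all tested genes, 14.5% were higher and 14.7% lower in osteoclasts than in macrophages. By the authors' deposited table, mitoribosome proteins with other symbols were higher in osteoclasts than in macrophages in 3 of 5 and lower in 0 (Dap3, Ptcd3 and Chchd1 were the 3). Translation factors were higher in 8 of 14 and lower in 0, among them the elongation factors Gfm1, with a log2 fold change of 0.93, and Tufm, with 0.61, in the authors' deposited table. Assembly factors were higher in 8 of 26 and lower in 0, and mitochondrial aminoacyl-tRNA enzymes higher in 8 of 21 and lower in 1. Genes of mitochondrial DNA transcription and upkeep were higher in 4 of 11 and lower in 1. Against dendritic cells the higher and lower counts in osteoclasts were 1 and 0 of 5, 7 and 0 of 14, 9 and 3 of 26, 8 and 2 of 21, and 3 and 0 of 11, in the same order. Of all genes tested there, 16.8% were higher and 20.1% lower. For dendritic cells against macrophages the counts were 1 and 0, 2 and 0, 3 and 4, 3 and 4, and 2 and 3. In that comparison 20.3% of all tested genes were higher and 16.4% lower, and no list had a larger share higher.

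Among 11 nuclear regulators of mitochondrial genes, 3 were higher in osteoclasts than in macrophages and 0 lower, beside 14.5% and 14.7% of all tested genes. The median log2 fold change of these regulators was 0.08 there, and -1.4e-05 for dendritic cells against macrophages. The change of Ppargc1b given next is therefore far from typical of them. Ppargc1b, a coactivator of mitochondrial biogenesis, held 244, 402, 349 and 438 normalised counts in osteoclasts, 35.4, 23.4, 41.9 and 39.3 in macrophages, and 290, 298, 202 and 431 in dendritic cells. Macrophages lay below both other cell types, and in the authors' deposited table the log2 fold change was 3.30 for osteoclasts and 3.07 for dendritic cells. The messages of the mitochondrial genome, which these ribosomes translate, were called higher in 0 and lower in 0 of 12 tested for osteoclasts against macrophages, although their median log2 fold change of 0.44 was close to that of the members. The mitochondrial ribosomal RNAs did not follow the members: in the authors' deposited table mt-Rnr1 averaged 3917 (osteoclasts), 4764 (macrophages) and 14682 (dendritic cells), and mt-Rnr2 8451, 9248 and 28812. Both lay below their dendritic level in osteoclasts, by a log2 fold change of -1.88 for mt-Rnr1 and -1.75 for mt-Rnr2 in the authors' deposited table, and neither was called between osteoclasts and macrophages. The kit used selects polyadenylated RNA, so these RNAs are measured only as far as that step retained them.

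Overlapping genes limited some members. In the GENCODE annotation 33 members share exonic bases with another gene, and 17 share at least 10% of theirs. Without those 17, 37 of 61 members (60.7%) were higher in osteoclasts than in macrophages and 0 lower. Of all tested genes, 14.5% were higher and 14.7% lower there. Against dendritic cells, 26 of the 61 (42.6%) were higher in osteoclasts and 2 lower, beside 16.8% and 20.1% of all tested genes. Dendritic cells were higher than macrophages for 17 (27.9%) and lower for 0, beside 20.3% and 16.4%. That last share higher was only a little above the background.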

How the data were processed

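RNA-seq libraries of osteoclasts, macrophages and dendritic cells, 4 each, were made with an Illumina TruSeq kit for stranded mRNA, per the labels' protocols. The submitters' processing notes name bcl2fastq, Bowtie2, TopHat2, Cufflinks 2.1.1 and DESeq2 2.13 on GRCm38. Whether the counting used strand is not stated there. The authors deposited 1 table with, for each pair of cell types, 2 mean normalised counts, the log2 fold change and its p-value, raw and adjusted. These deposited log2 values and p-values are the main results, called at adjusted p under 0.05. Standard errors were implied from the deposited log2 fold change and p-value (normal quantile).

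Whole numbers per library were recovered from each mean, as the only set of 4 whole numbers times 4 fixed steps that gives it to 15 significant digits. Nearly all means under 1000 had 1 solution. In each library these whole numbers showed regular gaps or doubled values, as a scaling followed by rounding leaves. A fit to that pattern, tested on simulated data, gave a factor for each library (0.841 to 1.063 in osteoclasts, 0.827 to 1.133 in macrophages, 0.9952 to 1.28 in dendritic cells). The recovered numbers are therefore not raw reads, the raw depth per library is not known, and no count model was run on them. The authors' test was likewise run on scaled counts. limma 3.58.1 in R 4.3.3, with a trend, on log2(normalised counts + 1) of genes with a mean of at least 1 served as an alternative test.

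Members and lists were chosen with earlier results of these data known. Full values are given for the most changed members per comparison, the 3 highest and 3 lowest per kilobase, members with unusual assignments and those whose promoter is shown; the latter were chosen after their values were seen. Alternatives were other scalings between cell types, filters on low counts, a threshold of 0.01, a pseudocount of 5 and leaving out each library.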

Additional observations from a re-analysis of the deposited data

Results flagged for a closer look

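Of 213 groups of 4 libraries (a member in a cell type), 8 held a library whose gap to its nearest neighbour was an unusually large share of the group's range, where chance flags about 1 in 20 groups. In osteoclasts, library d was the highest for Mrpl53 (356 against 236 to 249 normalised counts, a gap of 0.894 of the range) and for Mrps28 (421 against 357 to 368, 0.831). In macrophages, library d was the lowest for Mrpl37 (684 against 951 to 970, 0.935) and for Mrps28 (149 against 221 to 235, 0.84). Macrophage library b was the highest for Mrpl10 (964 against 903 to 910, 0.892) and the lowest for Mrpl27 (479 against 530 to 540, 0.843). In dendritic cells, library d was the highest for Mrpl58 (468 against 381 to 392, 0.871) and library a the lowest for Mrps30 (564 against 605 to 609, 0.927).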

How the results depend on the processing

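No paired analysis was possible because the deposited table carries no column per library and the recovered libraries no experiment number. For osteoclasts against macrophages, the 48 members higher stayed within 1.5 times under the other scalings, filters and threshold and with limma on all libraries (34 of 60), and 33 of the 35 authors' calls among those 60 were also made by limma; leaving out each library in turn gave 19 to 31 calls, a drop of over 1.5 times without osteoclast library c (22) and without d (19). Against dendritic cells, 31 members higher became 20 at adjusted p under 0.01 and 16 of 60 with limma (12 to 21 leaving out each library); the 3 lower became 0 with equal sums and 1 at adjusted p under 0.01, and limma's 3 ranged from 0 to 3; the median of 0.24 became 0.44 with equal sums. For dendritic cells against macrophages, 22 higher became 10 with equal sums, 13 with the upper quartile, 13 at adjusted p under 0.01 and 10 of 75 with limma (9 to 15); 0 lower became 5, 2 with the upper quartile and 1 with genes of at least 1 CPM, and 1 with limma without macrophage library d; the median of 0.19 became 0.040 with equal sums. Of the 60 members that limma could fit against dendritic cells, the authors called 19 higher in osteoclasts, and limma also called 15 of these. Of the 75 fitted for dendritic cells against macrophages, the authors called 21 higher, and limma also called 10 of these. Equal sums shifted the log2 fold changes of the 3 comparisons by 0.05, 0.19 and -0.15. Of the single named members, 67 values kept their side of the threshold with equal sums, 7 passed it and 4 lost it. The sign changed for 8 of these 78 values with equal sums, for 3 of 78 with the upper quartile and for 27 of 496 leaving out a library, and for 0 of those called. The median implied standard error of a member was 0.14 on the log2 scale. The smallest called log2 fold change of a member was 0.22 in absolute size, for Mrpl9 with an implied standard error of 0.07. Uncalled ones reached 0.55, for Mrpl53 with an implied standard error of 0.27. A difference of that size was not resolved for that member.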
